A study of Homo sapiens with 4 samples.

Results

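The 10 genes described here encode the MCM helicase of DNA replication and the factors that license origins: MCM2, MCM3, MCM4, MCM5, MCM6, MCM7, MCM10, CDT1, CDC6 and GMNN. They were chosen by name, all 10 have a row among the 56290 named features of the count table, and all 10 passed the minimum of 10 counts in at least 2 libraries, as did 19201 features in all. The series is an RNA immunoprecipitation (RIP) experiment in Huh7, a human cell line established from hepatocellular carcinoma, and it used an antibody to the splicing factor RBM39. It compared Huh7 cells with a plasmid-borne short hairpin RNA directed at RBM39 (shRBM39) with Huh7 cells carrying a control hairpin (shControl). Each of the 2 cultures gave 1 library of the immunoprecipitate (IP) and 1 library of input RNA, so the 4 libraries are the shRBM39 IP, the shRBM39 input, the shControl IP and the shControl input. The labels do not say which promoter drives the hairpin or whether the cells are a pool or a clone, and none of the 4 libraries is an IP with a control antibody, so a transcript brought down by RBM39 and one carried along without it cannot be told apart.

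MCM2 to MCM7 are the subunits of a ring-shaped hexamer that unwinds DNA ahead of the replication fork. In G1 phase CDC6 and CDT1 bring this ring to chromatin bound by the origin recognition complex, a step called licensing, and geminin, the product of GMNN, binds CDT1 and stops further loading after S phase has begun. MCM10 is not part of the ring and acts when the loaded helicase is activated. Transcripts of most of these genes are known to be E2F-regulated and abundant in dividing cells, and they are commonly raised in hepatocellular carcinoma relative to resting liver.

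Total counts were 45812488 in the shRBM39 IP, 22249581 in the shRBM39 input, 41387762 in the shControl IP and 20858382 in the shControl input. Levels below are CPM (counts scaled to a common library size) after TMM scaling, a correction for library composition, and a ratio is given as its log2 with a 95% counting interval. With 1 library per group these ratios have no replicate check and no p-value, and the intervals hold counting error alone: these reads carry no molecular identifiers and are not independent molecules. A feature is called higher or lower where it differed by 2-fold or more (a log2 ratio of 1) and its interval left out equality. RBM39 itself, the targeted transcript, stood at 370 CPM in the shRBM39 input against 404 CPM in the shControl input, a ratio of 0.917 (log2 -0.13, -0.17 to -0.08), so the input RNA shows only a small reduction. In the IPs RBM39 stood at 2222 CPM in shRBM39 cells against 1036 CPM in shControl cells. Its log2 ratio of IP over input was 2.58 in shRBM39 and 1.36 in shControl cells, a difference of 1.23 (1.18 to 1.27). The 9 hepatocyte and hepatoma markers were all counted, with 29767 to 88991 counts of ALB per library, while DCN had 0 counts in all 4 libraries and PTPRC 0 to 2. Of 11 markers of other cell types 5 passed the count minimum, with CD68 at 304 to 419 counts and PECAM1 at 130 to 203.

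The promoters are described first, and a link between their letters and the input ratios was not tested. RefSeq promoter windows of GRCh38, the assembly that hg38 names, run from 250 bases before to 50 bases after the annotated start, and 8 of the 10 genes were matched by symbol (the windows of MCM4 and MCM5 were not analysed here). The 4 spellings of the E2F site (TTTGGCGC, TTTCCCGC, TTTGCCGC and TTTCGCGC, on both strands) were searched, and spellings on opposite strands can overlap. At least 1 of these spellings was found in the windows of 6 of the 8 genes, in 21 of 61 windows of other replication genes and in 3.34% of 27305 windows, 1 per gene. The 250 bases before the start are printed 5′ to 3′ on the gene's strand for the 2 genes with the largest input ratios, MCM7 and MCM6, and the 2 with the smallest, CDT1 and GMNN, with E2F spellings in capitals.
MCM7 (chr7:100101398-100101647, minus strand): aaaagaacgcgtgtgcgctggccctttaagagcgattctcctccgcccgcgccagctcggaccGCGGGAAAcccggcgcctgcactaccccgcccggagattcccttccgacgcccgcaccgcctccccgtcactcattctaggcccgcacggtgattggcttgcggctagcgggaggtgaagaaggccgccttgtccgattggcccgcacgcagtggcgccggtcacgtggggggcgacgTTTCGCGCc
MCM6 (chr2:135876444-135876693, minus strand): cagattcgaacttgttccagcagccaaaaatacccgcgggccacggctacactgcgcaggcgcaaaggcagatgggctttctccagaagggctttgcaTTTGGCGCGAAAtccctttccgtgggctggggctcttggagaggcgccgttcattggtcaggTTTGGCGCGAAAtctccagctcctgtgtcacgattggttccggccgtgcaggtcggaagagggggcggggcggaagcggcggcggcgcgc
CDT1 (chr16:88803539-88803788, plus strand): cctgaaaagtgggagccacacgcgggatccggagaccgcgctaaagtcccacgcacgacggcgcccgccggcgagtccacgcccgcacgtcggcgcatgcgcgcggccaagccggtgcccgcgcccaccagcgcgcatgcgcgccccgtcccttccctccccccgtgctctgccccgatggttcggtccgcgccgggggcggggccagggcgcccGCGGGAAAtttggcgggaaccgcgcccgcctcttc
GMNN (chr6:24774687-24774936, plus strand): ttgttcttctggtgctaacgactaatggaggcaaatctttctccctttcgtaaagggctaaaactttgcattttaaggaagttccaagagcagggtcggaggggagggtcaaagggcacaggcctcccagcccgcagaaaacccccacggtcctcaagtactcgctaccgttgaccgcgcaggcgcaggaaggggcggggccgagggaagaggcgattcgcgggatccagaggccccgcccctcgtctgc

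MCM6 holds the same run, TTTGGCGCGAAA, at 2 places in this window, beginning 152 and 90 bases before the start, and each reads as an E2F spelling on both strands. MCM7 has 1 spelling that begins 187 bases and 1 that begins 9 bases before the start. CDT1 has 1, beginning 35 bases before the start, and no spelling was found in the GMNN and MCM10 windows. The matches of MCM2 and CDC6 lie just after the start and those of MCM3 begin 174 and 4 bases before it. CCAAT, the letters of the NF-Y site, was found on either strand in 5 of the 8 windows (MCM3, MCM6, MCM7, MCM10 and CDC6) and in 35.7% of all windows. GGGCGG, the GC box, was in 6 of the 8 and in 44.5% of all windows. These matches describe letters and were not tested as binding sites.

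The first comparison set the shRBM39 input against the shControl input, that is, the transcript levels before immunoprecipitation. All 10 genes were more abundant in the shRBM39 input, with intervals that excluded equality, and 6 were called higher at 2-fold and 0 lower. Many intervals exclude equality at this depth: of the 19201 compared features 5483 had intervals above it and 5126 below it. Of all compared features 5.10% were called higher and 5.73% lower. The median log2 ratio was 1.11 over the 10 genes and -0.01 over all compared features (0.02 over the 12884 that are protein coding in RefSeq). Whether more cells of the shRBM39 culture were in cycle or each cell held more of these transcripts cannot be told apart in bulk RNA.

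Within the hexamer the ratios ran from 1.88 to 3.31. MCM7 had 7319 counts (337 CPM) in the shRBM39 input and 2191 counts (102 CPM) in the shControl input, 3.31 times as much (log2 1.73, 1.66 to 1.80). MCM6 had 2844 counts (131 CPM) in the shRBM39 input and 892 counts (41.4 CPM) in the shControl input, 3.16 times as much (log2 1.66, 1.55 to 1.77). These 2 subunits lay at the 98.3 and 98.1 percentiles of all compared features. MCM3 had 12514 counts (576 CPM) in the shRBM39 input and 4434 counts (206 CPM) in the shControl input (log2 1.48, 1.43 to 1.53). MCM4 had 7359 counts (338 CPM) in the shRBM39 input and 2971 counts (138 CPM) in the shControl input (log2 1.29, 1.23 to 1.36). The intervals of MCM3 and MCM4 do not meet, nor does either meet that of MCM7. With 1 library per group the spread among these subunits was not tested. MCM5, at 2258 counts (104 CPM) in the shRBM39 input and 1092 counts (50.7 CPM) in the shControl input, stood just past 2-fold (log2 1.03, 0.93 to 1.14). MCM2 had 2226 counts (102 CPM) in the shRBM39 input and 1172 counts (54.4 CPM) in the shControl input and stood just short of it (log2 0.91, 0.81 to 1.02). The median log2 ratio of the 6 subunits was 1.39. With libraries scaled to total counts MCM5 came to 0.95, and 5 of the 10 genes were then called.

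**Figure D1:**
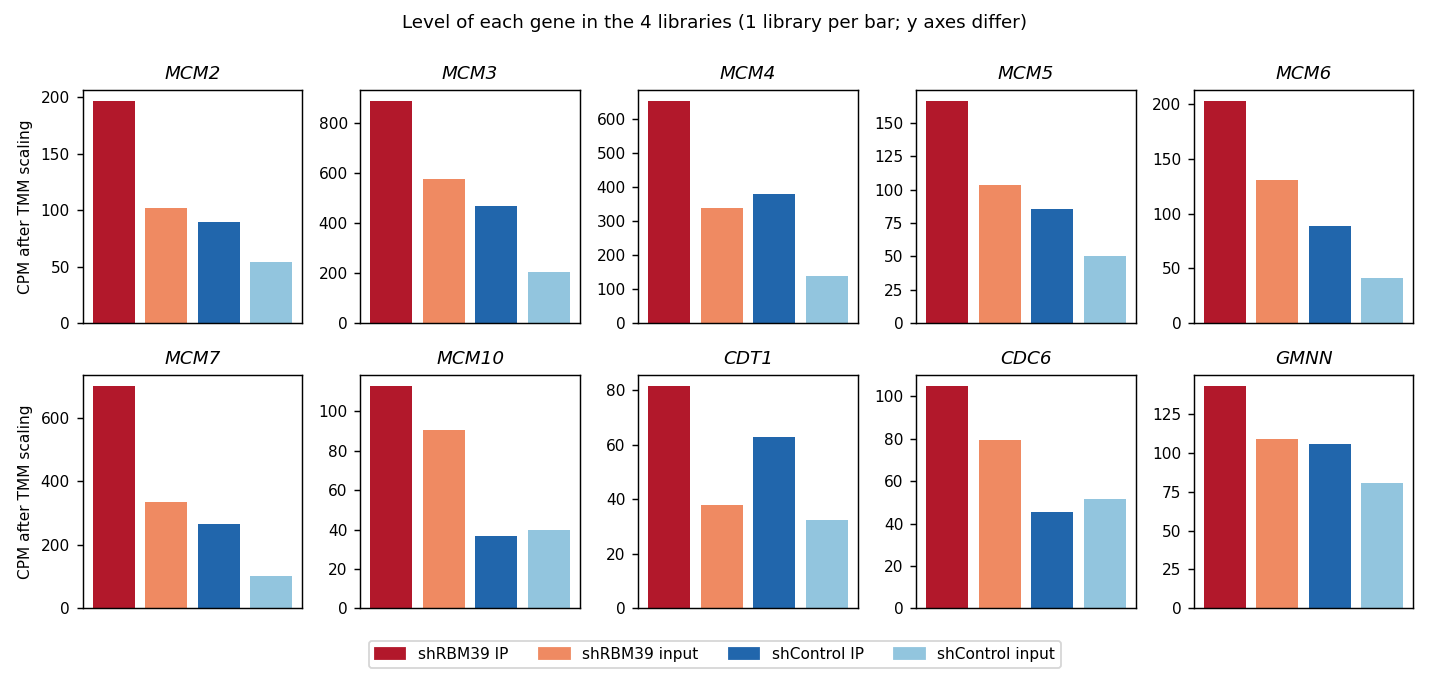
Level of each of the 10 genes in CPM after TMM scaling in the shRBM39 IP, shRBM39 input, shControl IP and shControl input, 1 library per bar, with a y axis from 0 for each gene. Every gene is higher in the shRBM39 input than in the shControl input, and MCM7 differs most, at 337 against 102 CPM.

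MCM10, the activation factor outside the ring, had 1969 counts (90.6 CPM) in the shRBM39 input and 852 counts (39.6 CPM) in the shControl input, 2.29 times as much (log2 1.19, 1.08 to 1.31). The loading factor CDC6 had 1731 counts (79.6 CPM) in the shRBM39 input against 1109 counts (51.5 CPM) in the shControl input, a ratio of 1.55 (log2 0.63, 0.52 to 0.74). MCM10 was thus among the called genes and CDC6 was not. GMNN, the inhibitor, had 2360 counts (109 CPM) in the shRBM39 input against 1736 counts (80.6 CPM) in the shControl input (log2 0.43, 0.34 to 0.52). CDT1, the partner that geminin binds, had 824 counts (37.9 CPM) in the shRBM39 input against 694 counts (32.2 CPM) in the shControl input (log2 0.23, 0.09 to 0.38). CDT1 and GMNN were the lowest of the 10, at the 66.5 and 77.2 percentiles of all compared features, and the interval of neither reaches the lowest hexamer subunit, MCM2.

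**Figure D2:**
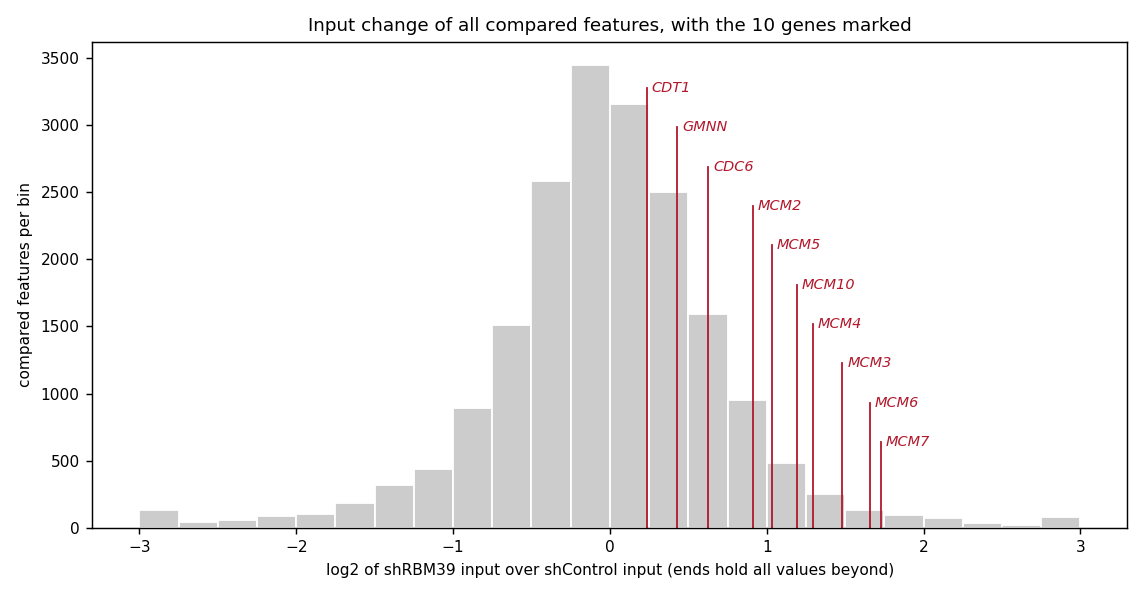
Histogram of the log2 ratio of shRBM39 input over shControl input for the 19201 compared features (x axis, in bins of 0.25; y axis, features per bin), with red lines at the 10 genes. The lines run from CDT1 at 0.23 to MCM7 at 1.73, while the median of all features is -0.01.

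The rest of the replication machinery was compared through 73 genes grouped by role. Of these, 4 were called higher and 0 lower in the shRBM39 input, with a median log2 ratio of 0.27. The higher calls are near the share of all compared features, of which 5.10% were called higher and 5.73% lower. The 4 were CLSPN, the claspin checkpoint mediator (log2 1.29, 1.23 to 1.35), LIG1, the ligase that joins Okazaki fragments (1.29, 1.16 to 1.42), DDB1, an adaptor of the CUL4 ubiquitin ligase that destroys CDT1 (1.05), and POLA2, a subunit of DNA polymerase alpha (1.05, 0.81 to 1.31). The origin recognition list had a median of 0.32 with 0 of 7 called, and its members ORC1 and ORC5 stood at 0.66 and 0.50. Other MCM-related genes had a median of 0.54 with 0 of 4 called, among them MCM9 at 0.73 and MCM8 at 0.58, paralogs that act in repair by recombination. Helicase activation genes had a median of 0.18 with 1 of 17 called, and the members of the CMG helicase around the ring, CDC45 and GINS1 to GINS4, ranged from -0.03 for GINS1 to 0.76 for GINS3. The replicative polymerase and clamp list had a median of 0.23 with 2 of 24 called, and PCNA, the sliding clamp, stood at 0.51. For the E2F and RB family the median was 0.04 with 0 of 11 called, and 5 intervals lay above equality and 3 below. In this family E2F1, E2F2, E2F8 and RBL2 stood at 0.35, 0.63, 0.54 and -0.51. Ubiquitin ligases and cyclins that act on licensing factors had a median of 0.20 with 1 of 10 called. Markers of mitosis had a median of 0.56, with 0 of 8 called, 6 with intervals above equality and a range from -0.04 for CDK1 to 0.91 for KIF20A, and their part in the result was not tested.

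**Figure D3:**
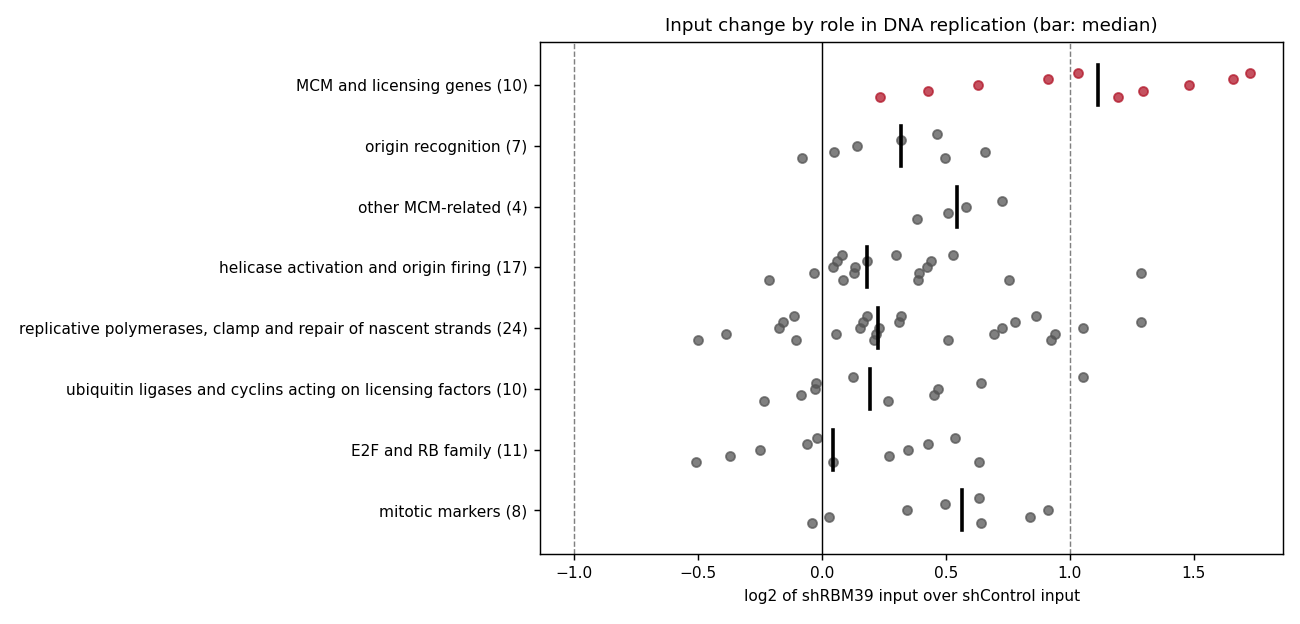
Log2 ratio of shRBM39 input over shControl input for the 10 genes (red) and for 7 lists of other replication and mitosis genes (grey, number of genes in brackets), 1 point per gene, with a black bar at each median and dashed lines at 2-fold. The median is 1.11 for the 10 genes and lies between 0.04 and 0.56 for the 7 lists.

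The IP over input ratio asked how well each transcript was recovered with the RBM39 antibody. In shRBM39 cells all 10 genes were more abundant in the IP than in the input, with a median log2 ratio of 0.66 against 0.02 over all compared features. At 2-fold 2 were called higher and 0 lower, where 5.30% of all compared features were higher and 9.00% lower. CDT1 had 3364 counts (81.3 CPM) in the shRBM39 IP and 824 counts (37.9 CPM) in the shRBM39 input, a log2 ratio of 1.10 (0.99 to 1.21). MCM7 had 28914 counts (699 CPM) in the shRBM39 IP and 7319 counts (337 CPM) in the shRBM39 input, a log2 ratio of 1.05 (1.02 to 1.09). These 2 calls were lost when libraries were scaled to total counts, which gave 0 called genes and a median of 0.54. Next were MCM4 (0.95, 0.91 to 0.99), with 27005 counts (653 CPM) in the shRBM39 IP, and MCM2 (0.94, 0.87 to 1.01), with 8132 counts (197 CPM). MCM5 (0.68), MCM6 (0.63) and MCM3 (0.62) followed, from 6889, 8396 and 36639 IP counts. CDC6 (0.39), GMNN (0.39) and MCM10 (0.31) were the least recovered of the 10. Of the 9 hepatocyte and hepatoma markers 0 were called higher and 4 lower in IP over input here, namely APOB, ALB, FGB and AFP, from -1.85 for APOB to -1.47 for AFP, and in shControl cells APOB alone was called lower (-1.46). Of the 5 compared markers of other cell types CD68 was called lower in shRBM39 cells (-1.14) and COL3A1 higher in shControl cells (1.11, 0.24 to 2.19), where the shControl IP held 56 COL3A1 counts and the shControl input 12.

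In shControl cells 4 of the 10 genes were called higher in the IP and 0 lower, where 7.70% of all compared features were higher and 11.3% lower. The median log2 ratio was 0.86 over the 10 genes and -0.005 over all compared features. All 4 were hexamer subunits: MCM4 (1.46, 1.40 to 1.52), MCM7 (1.38, 1.32 to 1.45), MCM3 (1.19, 1.14 to 1.23) and MCM6 (1.10, 0.99 to 1.20). MCM4 had 17128 counts (379 CPM) in the shControl IP and 2971 counts (138 CPM) in the shControl input, and MCM7 had 12001 counts (266 CPM) in the shControl IP and 2191 counts (102 CPM) in the shControl input. CDT1 stood at 0.96 (0.84 to 1.09), MCM5 at 0.75 and MCM2 at 0.71. CDT1 passed 2-fold as well with libraries scaled to total counts and with no filter on low counts. GMNN stood at 0.39 (0.31 to 0.47), the same as in shRBM39 cells. MCM10 (-0.11, -0.23 to 0.01) and CDC6 (-0.18, -0.29 to -0.07) were not more abundant in the IP here: CDC6 had 2053 counts (45.4 CPM) in the shControl IP and 1109 counts (51.5 CPM) in the shControl input.

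**Figure D4:**
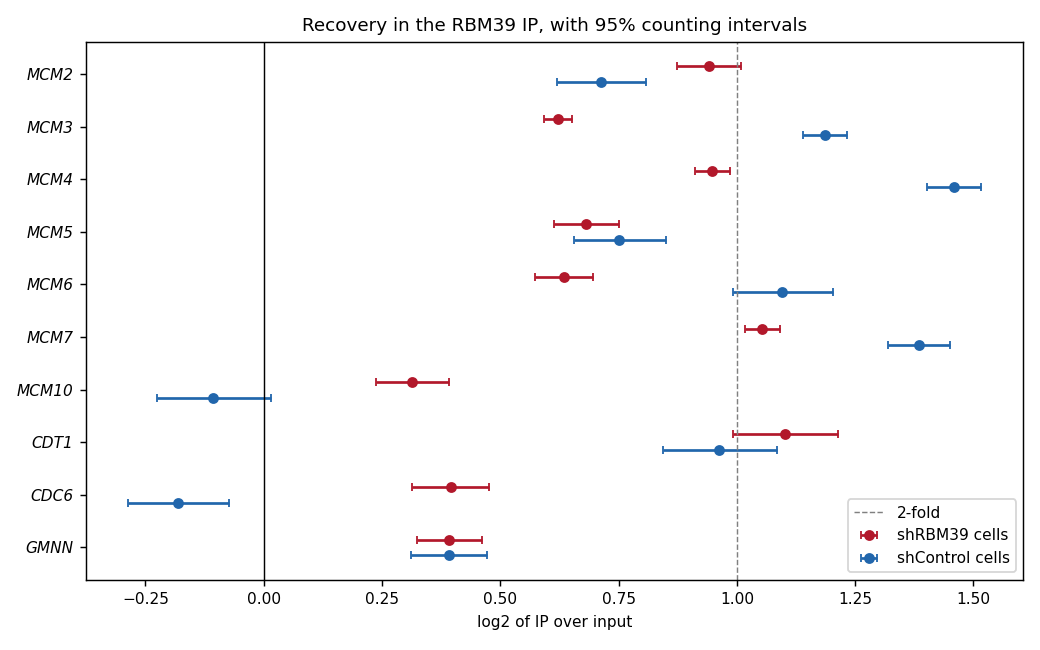
Log2 ratio of IP over input (x axis) for the 10 genes in shRBM39 cells (red, upper point) and shControl cells (blue, lower point), with 95% counting intervals and a dashed line at 2-fold. MCM3, MCM4, MCM6 and MCM7 lie further right in shControl cells, MCM2, MCM10 and CDC6 further right in shRBM39 cells, and GMNN is at 0.39 in both.

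The difference between the cultures in IP over input (shRBM39 minus shControl) was under 2-fold for all 10 genes, with 0 called higher and 0 lower, where 4.39% of all compared features were higher and 2.73% lower. Its median was -0.03 over the 10 genes and -0.004 over all compared features. MCM3 (-0.56, -0.62 to -0.51), MCM4 (-0.51, -0.58 to -0.44), MCM6 (-0.46, -0.58 to -0.34) and MCM7 (-0.33, -0.41 to -0.26) had the lower ratios in shRBM39 cells. These are the 4 genes with the largest input ratios, and the input stands in both quantities. CDC6 (0.58, 0.44 to 0.71), MCM10 (0.42, 0.28 to 0.56) and MCM2 (0.23, 0.11 to 0.34) had the higher ratios in shRBM39 cells. MCM2 came to 0.03 with libraries scaled to total counts, a scaling that moved the median of all compared features to -0.20. For MCM5 (-0.07, -0.19 to 0.05), CDT1 (0.14, -0.02 to 0.30) and GMNN (0.001, -0.10 to 0.11) no difference was detectable at this depth. In the IPs themselves all 10 genes stood higher in shRBM39 than in shControl cells. The ratio ran from 1.29 times for CDT1 (81.3 against 62.8 CPM) to 3.06 times for MCM10 (113 against 36.7 CPM). The same ratio was not summarised over all compared features, so this count of genes has no background. The summed level of the 6 hexamer transcripts was 2803 CPM in the shRBM39 IP against 1376 CPM in the shControl IP, and 1588 CPM in the shRBM39 input against 592 CPM in the shControl input.

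A single test then set the 2 IP libraries against the 2 input libraries, by edgeR's quasi-likelihood method with culture as a term and 1 residual degree of freedom. Of the 10 genes 7 were higher in the IP at a Benjamini-Hochberg adjusted p under 0.05 and 0 lower, where 19.1% of all compared features were higher and 17.5% lower. The 7 were MCM2 to MCM7 and CDT1. By edgeR's test the log2 change was 1.22 for MCM7 (adjusted p = 7.6e-05), 1.20 for MCM4 (0.00012), 1.03 for CDT1 (4.5e-05) and 0.90 for MCM3 (0.0019). It was 0.86 for MCM6 (0.00057), 0.83 for MCM2 (0.00051) and 0.72 for MCM5 (0.0013). GMNN (0.39, edgeR adjusted p = 0.052), CDC6 (0.11, 0.63) and MCM10 (0.11, 0.62) did not pass. The loader CDT1 and the ring it loads were thus recovered above input in both cultures, while the other loader, CDC6, was on opposite sides of equality in the 2 cultures. Without the culture term edgeR called 0 of the 10 genes and 0 of 19201 features, with 4144 features at an unadjusted p under 0.05.

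Among the other replication genes, this edgeR test called 23 of 73 higher in the IP and 5 lower, where 19.1% of all compared features were higher and 17.5% lower. RECQL4, a helicase that takes part in origin firing, was 1.24 higher on the log2 scale (adjusted p = 1.4e-05), with ratios of 1.13 in shRBM39 and 1.35 in shControl cells. E2F2 was 1.21 higher (adjusted p = 3.4e-05), POLD1, the catalytic subunit of polymerase delta, 1.06 higher (3.8e-05) and CLSPN 1.48 higher (7.6e-05). CLSPN had the largest difference between the cultures among the 73 genes, 0.92 (0.85 to 0.99), with 54305 counts in the shRBM39 IP against 12823 in the shControl IP. LRWD1, which associates with the origin recognition complex, was called higher in the edgeR test (log2 0.95, adjusted p = 0.0012), while the 6 ORC genes were not. TOPBP1, a scaffold of helicase activation, was less abundant in the IP at -0.92 in shRBM39 and -0.85 in shControl cells, and POLE3, a small subunit of polymerase epsilon, at -0.84 and -0.89 in the same order. The 2 mitotic markers that passed were KIF20A (log2 1.35, edgeR adjusted p = 1.4e-05) and PLK1 (0.98, 0.00013).

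Over the 3 ratios (input, and IP over input in each culture), the genes nearest to the median of the 10 among 9949 protein-coding genes with at least 500 summed counts were CTTN, SLC25A25, ZACN, TRAFD1 and ABL1, at Euclidean distances of 0.043 to 0.11 on the log2 scale. The 10 genes themselves lay 0.13 (MCM5) to 1.18 (CDC6) from that median, so those 5 are nearer to it than any of the 10. This likeness rests on 4 libraries.

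Reads could be shared with overlapping genes at 2 loci. MCM7 (chromosome 7, 100092728 to 100101397) overlaps the first bases of AP4M1 over 604 bases, and AP4M1 had 841 counts in the shRBM39 IP, 268 in the shRBM39 input, 801 in the shControl IP and 222 in the shControl input, far below MCM7. The microRNA genes MIR25, MIR93 and MIR106B inside MCM7 had 0 to 8 counts each. MCM2 (chromosome 3, 127598411 to 127622436) overlaps an edge of a non-coding gene over 34 bases. The other 8 genes overlap no RefSeq gene: MCM3 (chromosome 6, 52264015 to 52284742), MCM4 (chromosome 8, 47960941 to 47978160), MCM5 (chromosome 22, 35400140 to 35455031), MCM6 (chromosome 2, 135839626 to 135876443), MCM10 (chromosome 10, 13161558 to 13211110), CDT1 (chromosome 16, 88803789 to 88809258), CDC6 (chromosome 17, 40287879 to 40304657) and GMNN (chromosome 6, 24774937 to 24786099).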

How the data were processed

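The deposited table gives a raw count per gene symbol in each of the 4 libraries, whole numbers that the authors left unscaled, and its 4 columns matched the samples by name. The submitters' processing notes list cutadapt 1.9, HISAT2 2.0.4, StringTie 1.3.4d and hg38. For their order, the program that counted, strand handling and the gene annotation, the answer is: not given in the sources used here. Of 56303 rows, 13 are named by a number alone and were left out (0.0205% to 0.0335% of the counts).

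A feature needed 10 counts or more in 2 libraries or more. TMM scaling (edgeR 4.0.16, R 4.3.3) gave factors of 0.904 to the shRBM39 IP, 0.979 to the shRBM39 input, 1.09 to the shControl IP and 1.03 to the shControl input. Log2 ratios used a prior count of 0.5, with exact conditional (Clopper-Pearson) 95% intervals for ratios and the counting variance for their difference. In the edgeR quasi-likelihood test of culture and fraction, the culture term takes up a true difference in level between the cultures. A true difference between cultures in IP over input enters the error. DESeq2 1.42.0 was run as an alternative. Both steps were tested on simulated data. Other alternatives changed the scaling, count minimum, prior count, fold threshold and culture term. Nothing in the labels says that the cultures are replicates. These p-values rest on how far IP over input differed between the 2 cultures, with error shared across features, and not on replicate spread.

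Of counts from 3 to 6, 71.4% to 75.6% were even. Read mates may therefore have been counted one by one, which makes the intervals too narrow, and halved counts were an alternative. Mitochondrial transcripts took 0.316% of the counts of the shRBM39 IP, 2.12% of the shRBM39 input, 0.254% of the shControl IP and 2.96% of the shControl input. A current RefSeq symbol was found for 76.2% of compared features. The 10 genes, the other lists and the rules were chosen with earlier results of these data known. All 10 genes and RBM39 are named. Of each replication or mitosis list, members past 2-fold are named, and up to 2 per comparison with the largest ratio and a sum of 200 counts or more. CDC45, GINS1, TOPBP1, RBL2 and CDK1 lie outside this rule and were picked once their values were known.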

Additional observations from a re-analysis of the deposited data

Results flagged for a closer look

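MCM10 and CDC6 stood on opposite sides of equality in the cultures: IP over input was higher in shRBM39 cells and lower in shControl cells, with differences of 0.42 for MCM10 and 0.58 for CDC6 on the log2 scale. With 1 library per group this difference was not tested. For MCM10 the shControl ratio of -0.11 has a counting interval that includes equality (-0.23 to 0.01).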

How the results depend on the processing

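The input comparison gave 5 to 6 called genes, against 6, under the other scalings, count minimums, prior count and halved counts, with the direction of all 10 genes kept. In IP over input in shRBM39 cells 0 genes were called at 2-fold with total counts, 4 with no filter on low counts and 1 with at least 50 counts in 2 libraries, and the median of the 10 genes was 0.54, 0.78 and 0.58 in the same order, against 0.66. In shControl cells CDT1 was called beside the hexamer subunits with total counts and with no filter on low counts. At 1.5-fold 8 genes were called higher in the input comparison. For IP over input 7 genes were called at 1.5-fold in shRBM39 and 7 in shControl cells. The share of all compared features at 1.5-fold was not counted, so the 2-fold shares above are no background for these counts. The median difference between the cultures was -0.23 with total counts, a scaling that moved the median of all compared features from -0.004 to -0.20; against that shift CDT1 and GMNN, whose intervals include equality, changed sign. Over both cultures DESeq2 called 2598 features higher and 2095 lower, against 3662 and 3357 with edgeR. DESeq2 gave an adjusted p to 16223 of the 19201 features. Both called the same 7 of the 10 genes higher. Without the culture term (no replicate block) edgeR called 0 features higher and 0 lower and 0 of the 10 genes, with 4144 features at an unadjusted p under 0.05. GMNN passed (edgeR adjusted p = 0.017) with no filter on low counts. Leaving out a library of the 2-culture model leaves no residual degrees of freedom, so no such fit was made. Among the 10 genes and RBM39, no ratio with an interval that excluded equality changed direction under these alternatives. The lowest count among the 10 genes was 694, and replicate spread is unknown.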
